A study of Homo sapiens with 10 samples.

Results

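The MAP kinase cascade and the dual-specificity phosphatases were examined as a set of 62 genes, among 14884 genes with a named row on the array. They were taken by name, as every gene whose platform symbol is MAPK, MAP2K, MAP3K, MAP4K, MAPKAPK or DUSP followed by a number, pseudogenes left out, with the row of highest mean standing for each gene. DUSP5 and MAPK15 had a further row each. MAPK8 and MAPK14, which encode JNK1 and p38 alpha, and MAP2K7, MAP3K1, MAP4K2 and MAP4K3 were not analysed here. The RNA came from PC-3, an established human line grown from a bone metastasis of a prostate cancer. Clones were isolated after transduction with a lentiviral vector that either carried CENPU, a gene of the inner kinetochore, or was empty, and all of them had passed blasticidin selection. The 5 CENPU clones are numbered 1, 4, 5, 7 and 13 and the 5 empty-vector control clones 1 to 5, with 1 Affymetrix array per clone. Each clone grew from a single isolate, so a clone's own history and the effect of its vector cannot be told apart within that clone, and the spread between clones is the error of every test.

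MAP kinases work as the last of a chain of kinases. A MAP kinase kinase kinase (MAP3K), often driven by a MAP4K or by RAS, phosphorylates a MAP kinase kinase (MAP2K), which then phosphorylates a MAP kinase on a threonine and a tyrosine. The ERK branch answers mainly to growth factors, whereas the JNK and p38 branches answer mainly to stress and inflammatory cytokines. Dual-specificity phosphatases (DUSPs) of the MAP kinase phosphatase class remove both phosphates, and several are themselves induced by the pathway they switch off. All of these steps are set largely by phosphorylation, which an array of RNA does not measure.

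The values are log2 expression values, so a difference of 1 is a doubling. A gene passed when its Benjamini-Hochberg adjusted p in limma, a linear model with moderated variances fitted across all named rows, was under 0.05. The array medians lay between 4.62 and 4.76. CENPU itself ran from 8.70 to 9.84 in the CENPU clones and from 5.78 to 6.56 in the controls, so every clone matched its label. The epithelial keratin gene KRT18 lay between 10.3 and 11.1 over all clones, KRT19 between 10.2 and 11.2, and KRT8 lower, between 6.36 and 7.07. The epithelial gene EPCAM ran from 5.97 to 7.62 in CENPU clones and from 5.74 to 6.12 in controls, and did not pass. VIM, listed as a marker of PC-3, was higher in CENPU clones by 0.74 (limma adjusted p = 0.0045). KLK3, the prostate-specific antigen gene, which PC-3 is known not to express, lay between 5.36 and 5.72. Of 14 listed markers of blood cells, fibroblasts and endothelium 6 were measured, none of them passed, and DCN and LUM, which mark fibroblasts, were at or under 3.13 on every array. The endothelial receptor gene KDR varied most among them, from 6.74 to 10.5 in CENPU clones and 7.56 to 8.64 in controls, and the summed linear level of the 6 markers ran from 211 to 1580 and from 275 to 485. Its part in the results was not tested.

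Of the 62 genes 7 differed between the groups, 2 higher and 5 lower in CENPU clones. MAP2K6, the p38-activating kinase, and MAPK9, which encodes JNK2, were higher. The kinase gene MAP3K3, the MAP kinase genes MAPK12 and MAPK15, and the phosphatase genes DUSP1 and DUSP8 were lower. Over all genes 10.1% passed, 5.31% higher and 4.79% lower, and among protein-coding genes 11.7% passed, 6.23% higher and 5.43% lower. The share here was 11.3%, close to that background, and what follows concerns single genes. The median log2 difference was -0.04 over the set and -0.02 over all genes. The difference was negative in 38 genes, 61.3%, against 53.1% of all genes. Of the 62, 22 had an unadjusted p under 0.05 (8 above the controls and 14 below), 35.5% against 27.9% of all genes. After quantile normalization 2 were higher and 8 lower, 16.1% of the set against 11.5% of all genes. After median centring 1 was higher and 8 lower, 14.5% against 9.02%. The set was brighter than most genes, with a median level of 7.01 against 5.82 over all genes. Above that median of all genes, 14.9% of 47 cascade and DUSP genes passed, against 16.9% of 7442 genes. An unadjusted p under 0.05 was seen in 19 of these 47 and in 2971 of these 7442. Whether the set differs from other genes was not tested.

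**Figure D1:**
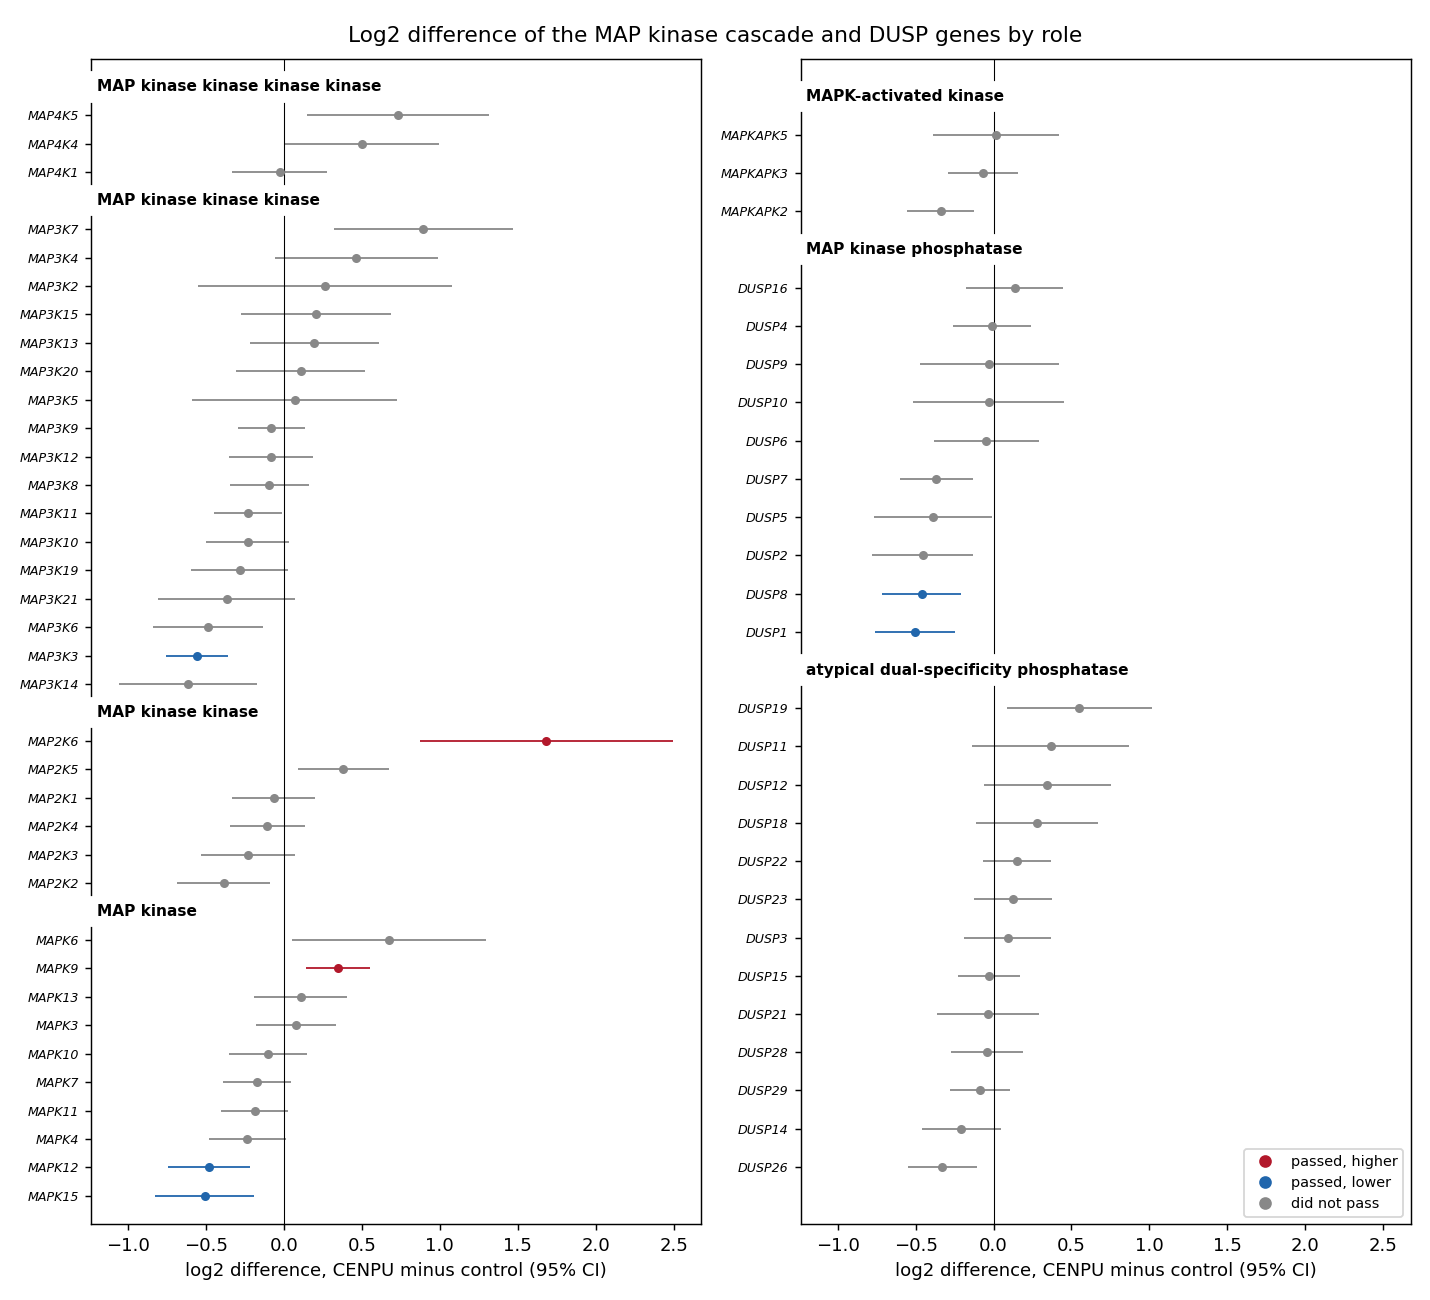
Log2 difference (CENPU minus control, x axis) of the 62 genes with 95% confidence intervals from limma, in 7 groups by role, with 5 clones in each group. MAP2K6 lies at 1.68, all others lie between -0.61 and 0.89, and 7 genes passed.

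The groups did not overlap in 7 of the 62 genes, 11.3%, where 9.73% of all genes had groups apart. In 2 of them the CENPU clones lay above (4.54% of all genes) and in 5 below (5.19%). These were MAP2K6, MAP3K3, DUSP1 and DUSP8, which passed, and MAP3K7, MAPKAPK2 and DUSP26, which did not. An absolute log2 difference of at least 1 was seen in 1 of the 62, MAP2K6, and in 2.41% of all genes. Leaving out single clones moved the counts of genes that passed widely. There were 10 lower and 5 higher without CENPU 1, 7 and 4 without CENPU 4, 1 and 1 without CENPU 5, CENPU 7 or CENPU 13, and 1 and 0 without control 4. Without control 2 there were 2 lower and 1 higher, without control 3 there were 3 and 1, and without control 5 there were 4 and 1. The share of all genes that passed moved too, from 4.12% without control 4 to 16.6% without CENPU 1.

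The promoters of the phosphatase genes that passed are shown first, because both hold the same sequence. The 250 bases before the annotated RefSeq transcription start (build GRCh38.p14) were searched on both strands for 7 motifs, after the calls were known. The cAMP response element palindrome, TGACGTCA, is bound by CREB and ATF proteins, and its core, TGACG, is contained in it. The palindrome is in capitals in the sequences of DUSP1 (chr5:172771196-172771445, minus strand) and DUSP8 (chr11:1572272-1572521, minus strand), each written 5′ to 3′ along its gene.
DUSP1: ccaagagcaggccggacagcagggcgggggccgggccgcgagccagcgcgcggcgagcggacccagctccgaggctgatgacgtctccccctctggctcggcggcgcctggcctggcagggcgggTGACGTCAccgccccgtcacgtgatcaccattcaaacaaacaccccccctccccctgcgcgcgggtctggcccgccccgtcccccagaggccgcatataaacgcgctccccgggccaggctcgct
DUSP8: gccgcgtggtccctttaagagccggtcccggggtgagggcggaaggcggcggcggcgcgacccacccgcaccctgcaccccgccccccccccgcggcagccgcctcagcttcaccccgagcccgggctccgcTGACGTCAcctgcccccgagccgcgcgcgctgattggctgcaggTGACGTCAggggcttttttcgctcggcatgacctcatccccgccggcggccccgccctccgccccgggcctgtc
The palindrome begins 125 bases before the start in DUSP1, which also has 2 separate cores, and 118 and 74 bases before it in DUSP8, which has 2 palindromes.

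Windows were found for 55 of the 62 genes, and 4 of the 55 held the palindrome. It was present in 1.65% of all 35116 windows and in 2.74% of the 10749 tested genes that had one. The other 2 genes with it are kinases that did not pass, MAPK10 (JNK3, difference -0.10) and MAP3K13 (LZK, a kinase upstream of JNK, difference 0.20). Their stretches around the palindrome, at chr4:86360109-86360148 (minus strand) and chr3:185282841-185282880 (plus strand), are given for comparison.
MAPK10: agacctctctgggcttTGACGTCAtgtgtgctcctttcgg
MAP3K13: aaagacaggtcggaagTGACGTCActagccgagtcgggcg
The core, counted also where it lies within the palindrome, was in 19 of the 55 genes and in 30.7% of tested genes. The E-box CACGTG was in 6 of them (9.88% of tested genes), among them DUSP1 and MAPK12. The AP-1 site TGANTCA was in 3 of the 55 (7.08%) and the NF-kB site in 9 (14.4%), of which none passed. TATAAA was in 3 (10.7%), DUSP1, MAP2K6 and MAP2K5, and the serum response element in none of these windows (1.64% of tested genes). These are matches of letters, and binding of any factor was not measured.

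At the top of the cascade, MAP4K kinases relay stress and cytokine signals to MAP3Ks. The 3 that were measured did not pass in limma, with 2 at an unadjusted p under 0.05, which 27.9% of all genes reached. MAP4K5 and MAP4K4 had log2 differences of 0.73 and 0.50, and MAP4K1, a kinase of blood cells, one of -0.03. Control 2, CENPU 7 and CENPU 13 lie at the ends of a trend with gene span and were picked from these values for that. The trend goes partly with the groups and is described below. Without these 3 clones the differences of MAP4K5 and MAP4K4 were 0.17 and 0.19.

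In the MAP3K tier 1 of 17 genes fell and 16 did not pass. The median difference of the tier was -0.08. MAP3K3 encodes MEKK3, which can feed the ERK5, p38 and NF-kB pathways. It was 8.85, 8.61, 8.60, 8.71 and 8.82 in CENPU clones 1, 4, 5, 7 and 13, and 9.16, 9.28, 9.24, 9.45 and 9.24 in control clones 1 to 5. Every CENPU clone lay below every control. The means were 8.72 ± 0.12 and 9.27 ± 0.11 (SD, n = 5 each), and MAP3K3 was 1.47-fold lower, or -0.56 ± 0.090 (standard error) in log2 units (limma adjusted p = 0.00538). It passed in each of the 10 fits without 1 clone, with differences from -0.59 to -0.51, and without the 3 clones named above (-0.59, limma adjusted p = 0.0279).

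MAP3K7 encodes TAK1, the kinase through which interleukin-1 and TGF-beta receptors reach JNK, p38 and NF-kB. It differed by 0.89 ± 0.26 (standard error) in log2 units and missed the threshold (limma adjusted p = 0.0511). CENPU clones ran from 7.00 in clone 1 to 8.37 in clone 13 and controls from 6.09 in clone 2 to 6.98 in clone 3, so the groups did not overlap. It passed without CENPU 1 (1.05, limma adjusted p = 0.0202) and without CENPU 4 (1.00, limma adjusted p = 0.0365), and its difference was 0.37 without control 2, CENPU 7 and CENPU 13. MAP3K14, the NIK kinase of non-canonical NF-kB signalling, differed by -0.61 and did not pass (limma adjusted p = 0.0768). It passed without CENPU 1 (-0.78, limma adjusted p = 0.0132). MAP3K6 (ASK2), at -0.49, also did not pass (limma adjusted p = 0.0789), and passed without CENPU 1 (-0.57, limma adjusted p = 0.0369) or CENPU 4 (-0.58, limma adjusted p = 0.0347).

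Among the other MAP3Ks the oxidative stress kinase MAP3K5 (ASK1) differed by 0.07, MAP3K4 (MEKK4), a partner of GADD45 proteins, by 0.47 and MAP3K2 (MEKK2) by 0.26. These 3 had wide spreads in the CENPU clones, with SDs of 0.74, 0.51 and 0.80, and their highest values were in CENPU 13. Without control 2, CENPU 7 and CENPU 13 they differed by -0.53, -0.04 and -0.53, and did not pass (limma adjusted p = 0.0803, 0.932 and 0.174). The mixed lineage kinase gene MAP3K21 differed by -0.37 in all clones and by -0.78 without those 3, where it passed (limma adjusted p = 0.0138). The other mixed lineage kinases MAP3K9, MAP3K10 and MAP3K11, and MAP3K12 (DLK), had differences from -0.23 to -0.08. MAP3K8 (TPL2), a kinase that activates MAP2K1 in inflammation, differed by -0.09, the ribosome-linked stress kinase MAP3K20 (ZAK) by 0.11, MAP3K15 (ASK3) by 0.21 and MAP3K19 by -0.28.

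In the MAP2K tier 1 of 6 genes rose, 0 fell and 5 did not pass. MAP2K6 encodes MKK6, which phosphorylates the p38 kinases. It was 6.34, 5.88, 8.15, 7.17 and 7.89 in CENPU clones 1, 4, 5, 7 and 13, and 5.37, 5.40, 5.49, 5.17 and 5.58 in control clones 1 to 5. Each CENPU clone was above each control, but the CENPU clones were spread over 2.27 log2 units and the controls over 0.41, and CENPU 4 lay 0.30 above the highest control. The controls lay near the level of KLK3, 5.36 to 5.72 over all clones, where differences are compressed. Whether their small SD reflects that level was not tested. The MAP2K6 means were 7.09 ± 0.97 and 5.40 ± 0.15 (SD, n = 5 each), a 3.21-fold difference, or 1.68 on the log2 scale with a 95% confidence interval from 0.87 to 2.50 (limma adjusted p = 0.0193). It passed in 9 of 10 fits without 1 clone and missed the threshold without control 4 (1.63, limma adjusted p = 0.054). It also missed it with ordinary variances, without limma's moderation (adjusted p = 0.0673). Without control 2, CENPU 7 and CENPU 13 it differed by 1.39 and did not pass (limma adjusted p = 0.117).

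**Figure D2:**
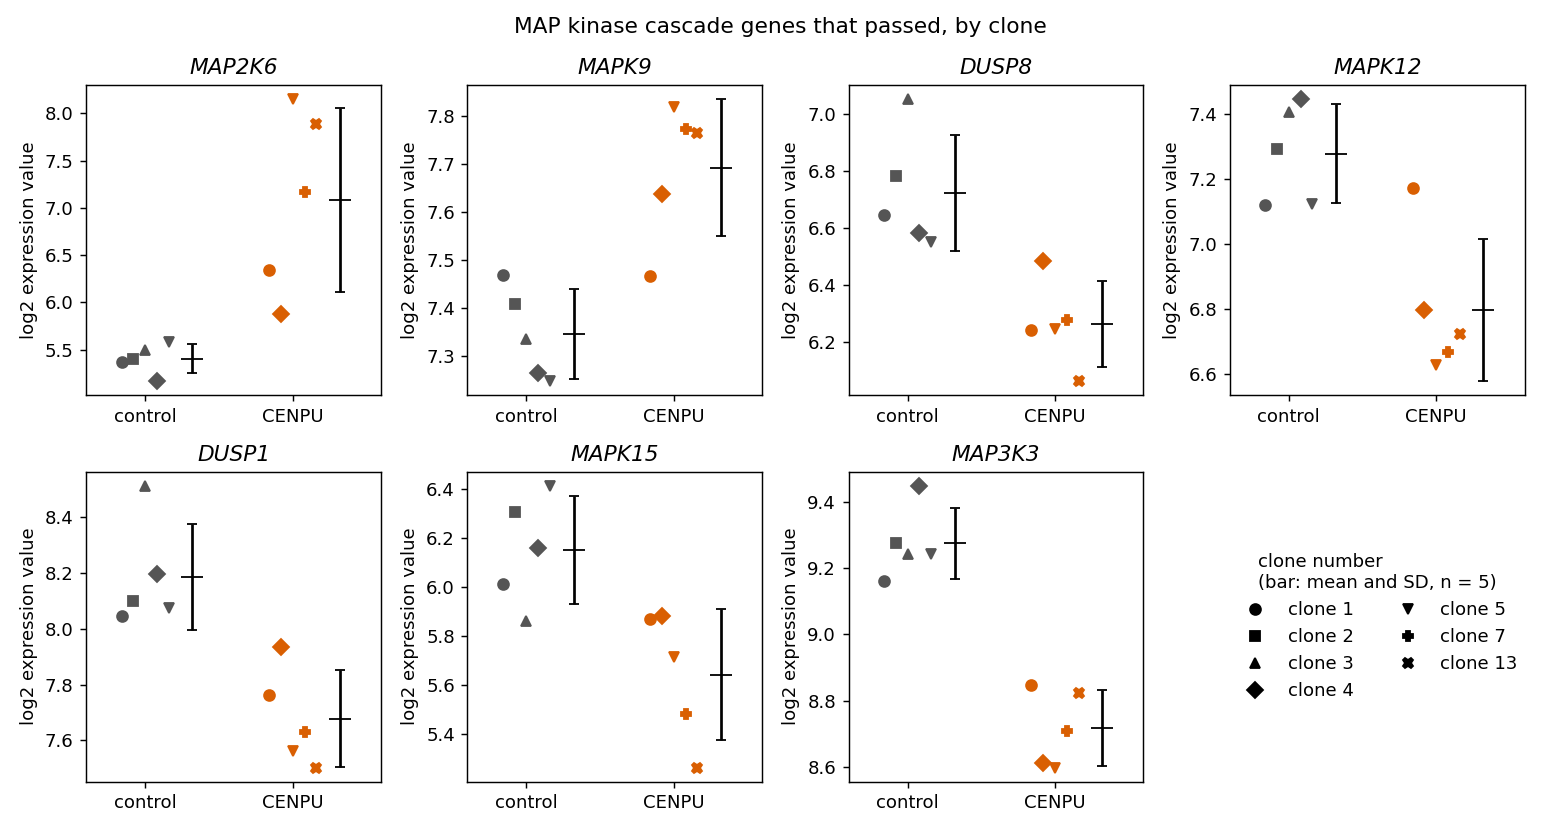
Log2 expression values of the 7 genes that passed, by clone, with symbols for clone numbers and bars for the mean and SD of 5 clones; each panel has its own y axis, which does not start at 0. In MAP2K6 CENPU clones 5, 13 and 7 lie between 7.17 and 8.15 and clones 1 and 4 at 6.34 and 5.88, while the MAP3K3 groups are tight and apart.

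MAP2K3, which encodes MKK3, the other kinase of p38, was 7.27, 7.51, 7.09, 7.07 and 6.95 in CENPU clones 1, 4, 5, 7 and 13, and 7.04, 7.68, 7.36, 7.54 and 7.42 in controls 1 to 5. The groups overlapped, and its difference was -0.23 with an interval from -0.53 to 0.07 (limma adjusted p = 0.305). MAP2K4 (MKK4), which activates JNK and also p38, was 5.24, 5.67, 5.20, 5.50 and 5.49 in the CENPU clones and 5.67, 5.64, 5.41, 5.41 and 5.50 in the controls, in the same orders. Its groups overlapped too, with a difference of -0.11 and an interval from -0.35 to 0.13.

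The ERK activators are MAP2K1 (MEK1) and MAP2K2 (MEK2). MAP2K1 was 9.76, 9.90, 9.56, 9.61 and 9.76 in CENPU clones 1, 4, 5, 7 and 13, and 9.97, 9.38, 9.84, 9.81 and 9.92 in controls 1 to 5. Its difference was -0.06, with an interval from -0.33 to 0.20, and control 2 was the lowest clone. MAP2K2 was 5.99, 6.08, 5.95, 5.90 and 5.70 in the CENPU clones and 5.83, 6.55, 6.42, 6.30 and 6.45 in the controls. Only control 1 lay among the CENPU clones, and the difference of -0.39 did not pass (limma adjusted p = 0.0924), while it passed without control 1 (-0.51, limma adjusted p = 0.0176). MAP2K5 (MEK5), the activator of ERK5, differed by 0.38 (limma adjusted p = 0.0919) and passed without CENPU 1 (0.45, limma adjusted p = 0.0403).

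Of 10 MAP kinase genes 1 rose, 2 fell and 7 did not pass. MAPK9, encoding the JNK2 kinase that phosphorylates JUN, was 7.47, 7.64, 7.82, 7.77 and 7.77 in CENPU clones 1, 4, 5, 7 and 13, and 7.47, 7.41, 7.34, 7.26 and 7.25 in controls 1 to 5. Of the CENPU clones only clone 1 reached into the controls, and MAPK9 was 1.27-fold higher, or 0.35 ± 0.094 (standard error) in log2 units (limma adjusted p = 0.0385). It missed the threshold after quantile normalization (0.26), after median centring (0.35), with eBayes with trend and robust fitting, after removal of the trend with gene span (0.19), and without CENPU 5, 7 or 13 or control 2, 3, 4 or 5 (limma adjusted p from 0.067 to 0.0967, differences from 0.32 to 0.36). MAPK10, the JNK3 gene of neurons, differed by -0.10.

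Of the p38 genes MAPK12, encoding p38 gamma, fell. It was 7.17, 6.80, 6.63, 6.67 and 6.72 in CENPU clones 1, 4, 5, 7 and 13, and 7.12, 7.29, 7.41, 7.45 and 7.12 in controls 1 to 5. CENPU 1 overlapped the controls and the other 4 CENPU clones lay below them all. MAPK12 was 1.39-fold lower, or -0.48 ± 0.12 (standard error) in log2 units (limma adjusted p = 0.03). It missed the threshold without CENPU 5, 7 or 13 or control 2, 3 or 4, at differences from -0.48 to -0.44 (limma adjusted p from 0.0658 to 0.0796), with ordinary variances (adjusted p = 0.0589), and without the 3 clones together (-0.41, limma adjusted p = 0.188). The p38 beta and p38 delta genes MAPK11 and MAPK13 did not pass, at -0.19 and 0.11.

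MAPK15, an atypical MAP kinase also called ERK8, was 5.87, 5.88, 5.72, 5.48 and 5.26 in CENPU clones 1, 4, 5, 7 and 13, and 6.01, 6.30, 5.86, 6.16 and 6.41 in controls 1 to 5. Control 3 lay within the range of the CENPU clones. The CENPU values lay near the level of KLK3, 5.36 to 5.72 over all clones, where differences are compressed. MAPK15 was 1.42-fold lower, or -0.51 ± 0.15 (standard error) in log2 units (limma adjusted p = 0.0483). Its further row differed by -0.23 and did not pass (limma adjusted p = 0.158), and the mean of the 2 rows did not pass either (-0.37, limma adjusted p = 0.0679). The call was also lost with all rows of the table in the fit, with eBayes with trend and robust fitting, with ordinary variances and with the span trend removed (adjusted p from 0.0539 to 0.0978), and without CENPU 5, 7 or 13 or control 1, 2, 4 or 5, at differences from -0.54 to -0.41 (limma adjusted p from 0.0567 to 0.114). Without control 2, CENPU 7 and CENPU 13 the difference was -0.29.

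MAPK3, the ERK1 gene, was 9.12, 9.22, 9.21, 8.71 and 8.91 in CENPU clones 1, 4, 5, 7 and 13, and 8.80, 9.13, 9.01, 8.85 and 9.00 in controls 1 to 5. The groups overlapped throughout, with a difference of 0.08 and an interval from -0.18 to 0.34 (limma adjusted p = 0.706). MAPK7 (ERK5) differed by -0.17 and MAPK4 (ERK4) by -0.23, and neither passed. MAPK6, the ERK3 gene, differed by 0.67 and did not pass (limma adjusted p = 0.151), with CENPU 13 at 6.76, CENPU 7 at 6.24 and the other CENPU clones from 4.87 to 5.54, against 4.97 to 5.26 in controls. It passed without CENPU 1 (0.90, limma adjusted p = 0.0278), and its difference was 0.15 without control 2, CENPU 7 and CENPU 13.

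The kinases MAPKAPK2, MAPKAPK3 and MAPKAPK5 act below p38, and MAPKAPK2 stabilises cytokine mRNAs. None of the 3 passed in limma, and 1 had an unadjusted p under 0.05, against 27.9% of all genes. MAPKAPK2 ran from 8.86 to 9.14 in CENPU clones and from 9.20 to 9.58 in controls, so the groups did not overlap, and its difference of -0.34 lay at the threshold (limma adjusted p = 0.0507). It passed without CENPU 1 (-0.37, limma adjusted p = 0.0332). MAPKAPK3 and MAPKAPK5 differed by -0.07 and 0.02.

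Of 10 MAP kinase phosphatase genes 2 fell, 0 rose and 8 did not pass. Their differences were negative in 9 of 10, with a median of -0.21 against -0.02 over all genes. Of these genes 7 belong to quintiles 1 and 2 of genomic span among protein-coding genes, the shortest, and 1678 of the 2384 genes in quintile 1 and 1492 of the 2383 in quintile 2 had negative differences as well. DUSP1, also called MKP-1, is a nuclear phosphatase of p38, JNK and ERK that stress, growth factors and cAMP induce. It was 7.76, 7.93, 7.56, 7.63 and 7.50 in CENPU clones 1, 4, 5, 7 and 13, and 8.05, 8.10, 8.51, 8.19 and 8.07 in controls 1 to 5. Every CENPU clone lay below every control. DUSP1 was 1.42-fold lower, with means of 7.68 ± 0.17 and 8.18 ± 0.19 (SD, n = 5 each) and a difference of -0.51 ± 0.12 (standard error) in log2 units (limma adjusted p = 0.0232). Without CENPU 5, 7 or 13 or control 4 it missed the threshold at differences from -0.50 to -0.46 (limma adjusted p from 0.0537 to 0.0576), and without control 2, CENPU 7 and CENPU 13 it differed by -0.45 (limma adjusted p = 0.128).

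DUSP8, a phosphatase with a preference for JNK and p38, was 6.24, 6.48, 6.25, 6.28 and 6.06 in CENPU clones 1, 4, 5, 7 and 13, and 6.65, 6.78, 7.05, 6.58 and 6.55 in controls 1 to 5. Its groups did not overlap either, with CENPU 4 just below control 5. DUSP8 was 1.38-fold lower, or -0.46 ± 0.12 (standard error) in log2 units (limma adjusted p = 0.0309). It missed the threshold without CENPU 5, 7 or 13 or control 2, 3 or 4, at differences from -0.50 to -0.38 (limma adjusted p from 0.0545 to 0.0718), with ordinary variances (adjusted p = 0.0577), and without the 3 clones together (-0.38, limma adjusted p = 0.188). The related phosphatases DUSP10 and DUSP16 differed by -0.03 and 0.13.

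DUSP10 was 5.77, 5.75, 5.18, 6.39 and 6.15 in CENPU clones 1, 4, 5, 7 and 13, and 5.91, 5.53, 6.42, 5.71 and 5.83 in controls 1 to 5. The spread within each group was larger than the difference, whose interval ran from -0.52 to 0.46.

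The ERK phosphatases did not pass. DUSP6 (MKP-3), a cytoplasmic phosphatase whose transcript rises with ERK activity, was 9.94, 10.2, 10.3, 10.5 and 10.8 in CENPU clones 1, 4, 5, 7 and 13, and 10.2, 10.2, 10.4, 10.6 and 10.6 in controls 1 to 5. The groups overlapped, and the difference was -0.05 with an interval from -0.38 to 0.29. DUSP4 (MKP-2), another ERK-induced phosphatase, was 9.39, 9.63, 9.65, 9.57 and 9.42 in the CENPU clones and 9.29, 9.45, 9.42, 9.73 and 9.80 in the controls. Its difference was -0.01 with an interval from -0.26 to 0.24. DUSP5, the nuclear ERK phosphatase, was 10.3, 10.4, 9.56, 10.6 and 10.1 in the CENPU clones and 10.5, 10.4, 10.7, 10.8 and 10.6 in the controls. CENPU 5 was its lowest clone, its difference was -0.39 (limma adjusted p = 0.172), and its further row differed by 0.05.

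DUSP7, a cytoplasmic ERK phosphatase, differed by -0.37 and lay at the threshold (limma adjusted p = 0.0504). It ran from 8.09 to 8.47 in CENPU clones and from 8.44 to 8.86 in controls, an overlap of control 1 alone with CENPU 7. It passed without CENPU 4 (-0.40, limma adjusted p = 0.0435) and without control 1 (-0.42, limma adjusted p = 0.0363). DUSP2 (PAC1), a nuclear phosphatase of ERK and p38, differed by -0.46 and did not pass (limma adjusted p = 0.0719), and passed without CENPU 1 (-0.53, limma adjusted p = 0.0324). DUSP9, the MKP-4 gene, differed by -0.03.

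Atypical DUSPs lack the MAP kinase binding domain, and several act on other substrates. None of the 13 passed in limma, 2 had an unadjusted p under 0.05 (27.9% of all genes did), and their median difference was 0.09. DUSP26 ran from 5.12 to 5.39 in CENPU clones and from 5.42 to 5.78 in controls, and differed by -0.33 (limma adjusted p = 0.0586), passing without CENPU 1 (-0.36, limma adjusted p = 0.0437). DUSP19, whose product can act on the JNK pathway, differed by 0.55 and DUSP11, an RNA phosphatase, by 0.37. DUSP12 differed by 0.34 and passed without CENPU 4 (0.52, limma adjusted p = 0.032). DUSP18 differed by 0.28, and DUSP3 (VHR), DUSP22 (JSP-1) and DUSP23 by 0.09, 0.15 and 0.12. DUSP14, DUSP15, DUSP21, DUSP28 and DUSP29 lay between -0.21 and -0.03.

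The genomic span of a gene went with its pattern over clones. Over protein-coding genes the Spearman correlation of span with the deviation in a clone ran from -0.36 to -0.09 in the controls. It was -0.16 and -0.04 in CENPU 1 and 4, and 0.20, 0.32 and 0.36 in CENPU 5, 7 and 13. The trend thus went partly with the groups, and leaving out control 2, CENPU 7 and CENPU 13 need not remove it. Of the 16 cascade and DUSP genes in the longest quintile of protein-coding genes, 12 had positive differences, 1 was higher (MAP2K6) and 0 were lower, while in the longest quintile overall 11.5% were higher and 1.72% lower. Of the 11 in the shortest quintile, 9 had negative differences, 2 were lower (DUSP1 and MAPK15) and 0 were higher, against 8.39% lower and 2.18% higher in that quintile overall. Over the 16 long genes the median deviation from the mean of all clones was 0.45 in CENPU 13, 0.40 in CENPU 7 and -0.40 in control 2, and between -0.17 and 0.06 in the other 7 clones. MAP2K6, with a span of 139 kb, was highest in CENPU 5, where that median was -0.11. Its next highest clones were CENPU 13 and 7. CENPU 5, 13 and 7 are also the clones with positive span correlations over protein-coding genes, 0.20, 0.36 and 0.32. The part of this pattern in the calls was not tested. Fits without the 3 clones and with the trend removed are given below. These 3 clones were picked from the same values as the ends of the trend. Smaller differences of long genes without them therefore follow in part from that choice.

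**Figure D3:**
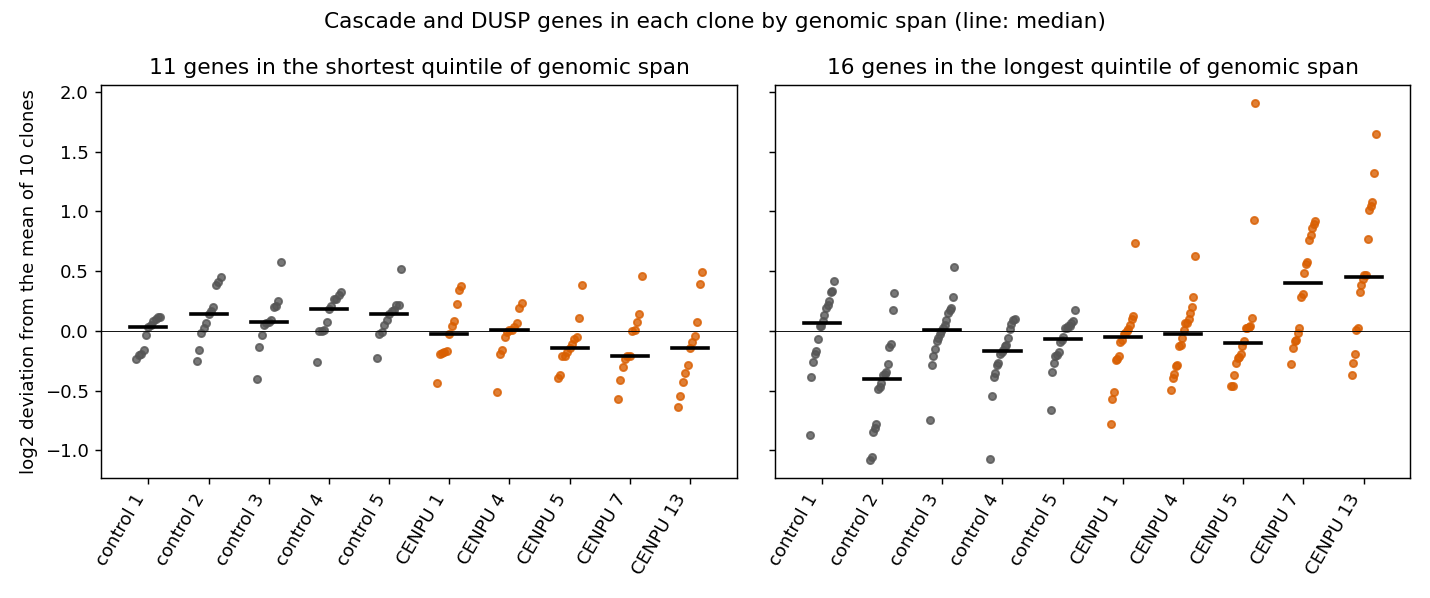
Log2 deviation of each gene from its mean over 10 clones (y axis) in each clone (x axis), for the 11 cascade and DUSP genes of shortest and the 16 of longest genomic span, with lines for medians. The long genes are highest in CENPU 13 (median 0.45) and CENPU 7 (0.40) and lowest in control 2 (-0.40).

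Without control 2, CENPU 7 and CENPU 13, 2 of the 62 genes passed, both lower (MAP3K3 and MAP3K21), and 0 were higher in limma. At the adjusted threshold 3.23% of the set and 3.16% of all genes passed in that fit of 7 clones. At an unadjusted p under 0.05 there were 6 above and 10 below in the set. The share of all genes under that unadjusted threshold was not computed for this fit. The genes that had passed in all clones kept from 56.9% (MAPK15) to 106% (MAP3K3) of their difference, MAP2K6 82.5%, DUSP1 89.6% and MAPK9 89.8%. With the span trend removed from each array 2 were higher (MAP2K6 and MAP3K7) and 6 lower, 4 of them among the 5 lower in all clones.

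**Figure D4:**
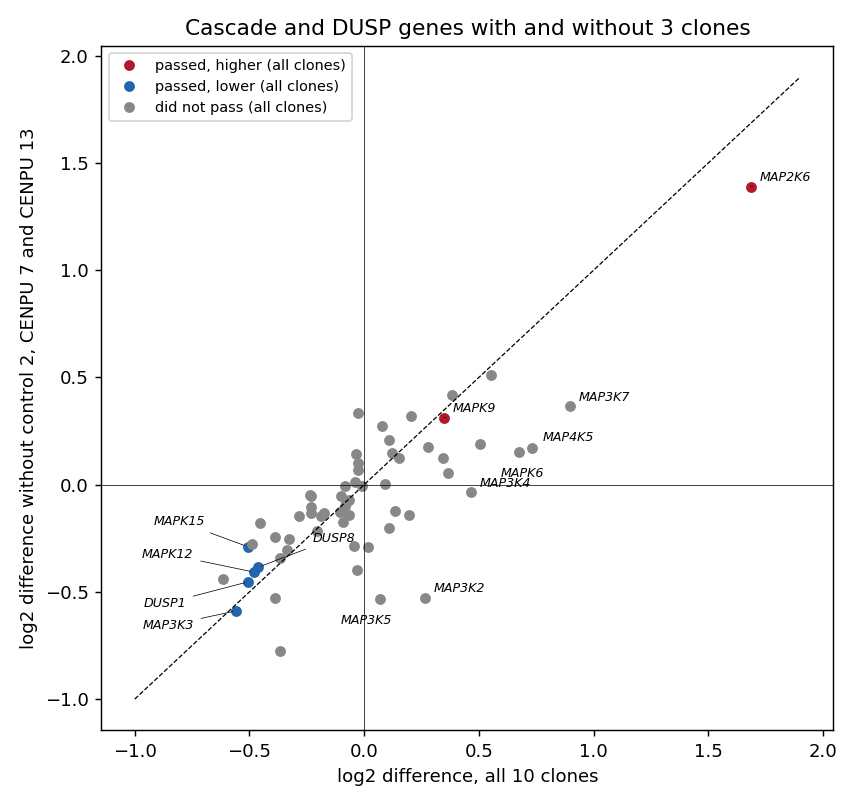
Log2 difference of the 62 genes in all 10 clones (x axis) against the difference without control 2, CENPU 7 and CENPU 13 (y axis), with the line of equality dashed. MAP3K7, MAP4K5, MAPK6, MAP3K4, MAP3K2 and MAP3K5 lie farthest below the line, while the 7 genes that passed lie nearer to it.

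Clones within a group also varied. The SD was larger among CENPU clones than among controls in 44 of the 62 genes, 71.0%, against 67.9% of all genes. The median SD over the set was 0.22 in CENPU clones and 0.20 in controls.

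The genes around the cascade were taken as 7 lists of 126 genes, of which 77 were measured. Of these 8 were higher and 7 lower, 10.4% and 9.09% against 5.31% and 4.79% of all genes, and their median difference was 0.10. The list genes were brighter than most, with a median level of 7.42 against 5.82 over all genes. Among genes above the median level of all genes, 8.43% were higher and 8.49% lower, closer to the shares in the lists. Whether the lists differ from other genes was not tested. After median centring 6 of the list genes were higher and 9 lower. Among 17 receptor, adaptor, RAS and RAF genes 1 rose, 2 fell and 14 did not pass. The growth factor receptor gene EGFR was 1.83-fold higher, or 0.87 ± 0.15 (standard error) in log2 units (limma adjusted p = 0.00649). ARAF, a RAF kinase that phosphorylates MAP2K1 and MAP2K2, fell by 0.62 and RRAS, a RAS-related GTPase, by 0.59 (limma adjusted p = 0.0107 and 0.0143). SOS1, the exchange factor that loads RAS with GTP, differed by 0.94 and did not pass.

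Of 8 measured brakes on RAS and RAF 2 rose, 0 fell and 6 did not pass. NF1, the GTPase activator that switches RAS off, was higher by 1.35 (standard error 0.34, limma adjusted p = 0.0313), and differed by 0.70 without control 2, CENPU 7 and CENPU 13, where it did not pass. RASAL2, another RAS GTPase activator, was higher by 0.52. ERF, a repressor that ERK exports from the nucleus, differed by -0.42 (limma adjusted p = 0.0527), and the RAS GTPase activator RASA2 by 0.35, and neither passed.

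Scaffolds hold kinases of a module together, and 2 of 12 rose, 1 fell and 9 did not pass. IQGAP1, a scaffold of MAP2K1 and ERK, was higher by 1.67 and SPAG9, the JNK scaffold JIP4, by 1.17 (limma adjusted p = 0.00395 and 0.041), whereas PEA15, which holds ERK in the cytoplasm, was lower by 0.41. SHOC2, which helps RAF activation, differed by 1.26 and did not pass (limma adjusted p = 0.052). Without the 3 clones SPAG9 differed by 0.56 and did not pass.

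Among 14 activators of the stress branches 2 rose, 3 fell and 9 did not pass. An unadjusted p under 0.05 was seen in 11 of them, against 27.9% of all genes and 2971 of 7442 genes above the median level. The list had a median level of 7.70 and a median span of 78.8 kb, against 5.82 and 20.7 kb over all genes. Whether it differs from other genes was not tested. TAB2, the adaptor that carries MAP3K7 to ubiquitin chains, was higher by 0.82 (limma adjusted p = 0.0367) and differed by 0.36 without the 3 clones, where it did not pass. Of the MAP4K-related kinases TNIK was higher by 0.88 (limma adjusted p = 0.00813) and MINK1 lower, at -0.39. TAOK2, a MAP3K-like kinase, was lower, at -0.46. DAXX, a partner of MAP3K5, was lower, at -0.29.

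Below the MAP kinases, 0 of 10 measured kinases and factors that they activate passed in limma. An unadjusted p under 0.05 was seen in 4, against 27.9% of all genes. The transcription factor genes ATF2, MEF2A, CREB1 and MEF2D differed by 0.67, 0.51, 0.44 and -0.37. Of 15 transcripts that rise with ERK activity 1 was higher, 1 was lower and 13 did not pass, with a median of -0.03. ETV5, an ETS factor, was higher by 0.54 (limma adjusted p = 0.0174) and the survival gene IER3 lower, at -0.66 (limma adjusted p = 0.00401). The receptor gene EPHA2 differed by -0.31 and the immediate early gene FOS by -0.27, and neither passed. STYX, the 1 measured gene of the list named other phosphatases of MAP kinases, differed by -0.15. Whether its product acts as a phosphatase was not examined. Without control 2, CENPU 7 and CENPU 13 EGFR, IQGAP1, TNIK and IER3 passed, at 0.65, 1.26, 0.72 and -0.70, and the other 11 of the 15 did not.

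**Figure D5:**
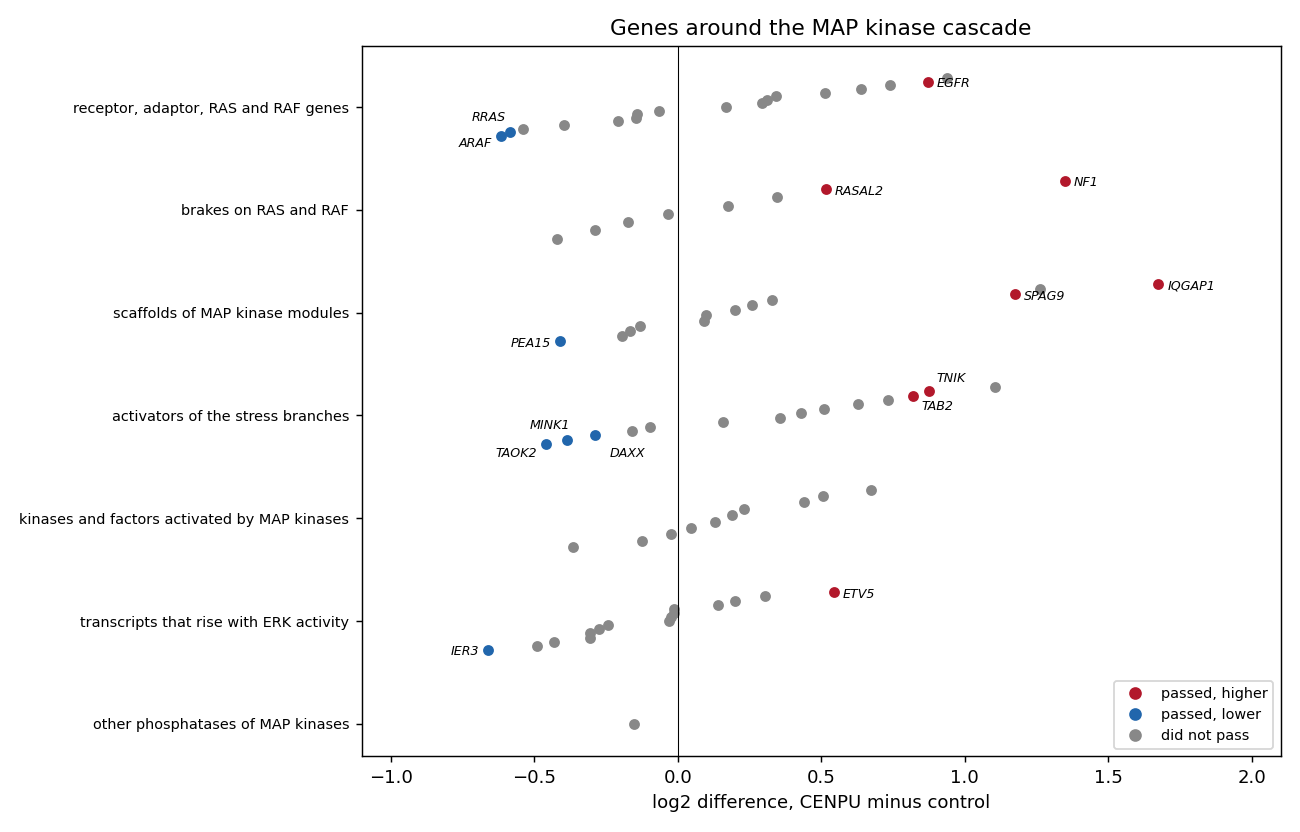
Log2 difference (CENPU minus control, x axis) of 77 measured genes around the cascade in 7 lists (y axis, points spread vertically by rank for legibility), with the 15 that passed named. IQGAP1 lies furthest to the right at 1.67 and IER3 furthest to the left at -0.66.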

How the data were processed

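The deposited table held log2 expression values made by the authors, 1 column per clone. Per the submitters' processing notes Partek and RMA were used, with no version given. The log2 scale was inferred from the values, and steps after RMA and the build of the array annotation are not given in the sources used here. RMA commonly equalises arrays, so a shift common to most genes would be largely hidden, and differences of dim rows come out small. The deposited arrays were not fully equal, with medians from 4.62 to 4.76. Quantile normalization moved the median difference of all genes from -0.02 to -0.04. Of 53617 rows 16098 carried 1 symbol in the platform table, none several, and all matched the RefSeq gene table of GRCh38.p14 by gene ID. Arrays have no depth, and 5 clones a group limit the precision.

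Alternatives covered scaling, dim rows, rows tested and summarised, variance model, weights, threshold, clone number, clones left out and the span trend. All 16098 rows were fitted with limma 3.58.1 in R 4.3.3 (lmFit, eBayes, no covariates), with Benjamini-Hochberg adjustment over them. The fit was tried on simulated data with independent normal noise in each row. Such noise holds no trend shared across genes within a clone, so that run cannot show how the fit behaves under the span trend. Cascade and DUSP genes were chosen by symbol, and their lists, tests and alternatives with earlier results of these data known. Values in every clone are given for genes that passed or had an absolute log2 difference of 1 or more and for core kinases and DUSPs fixed by name. In the lists, genes that passed and up to 4 by smallest p are named. Promoter windows came from RefSeq.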

Additional observations from a re-analysis of the deposited data

Results flagged for a closer look

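Dixon's test for 1 distant clone among 5 was applied to each of the 62 genes in each group, 124 sets in all, and 6 met it, where chance flags about 1 in 20. In 4 of the 6 the distant clone was control 2. It was high for MAPK4, at 5.41 against 5.14 to 5.19 in the other controls, and for DUSP9, at 7.32 against 6.50 to 6.71. It was low for MAP2K1, at 9.38 against 9.81 to 9.97, and for MAP4K4, at 8.99 against 9.60 to 9.69. MAPK11 was high in control 3, at 6.81 against 6.59 to 6.63. MAP3K15, the ASK3 gene, was high in CENPU 5, at 6.68 against 5.56 to 5.73 in the other CENPU clones, and MAP2K6 was highest in the same clone. None of these 6 genes passed in limma.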

How the results depend on the processing

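Counts of cascade and DUSP genes were 2 higher and 5 lower. After median centring, with eBayes with trend and robust fitting and with ordinary variances 1 was higher, and there were 8 lower after quantile normalization or median centring, 2 lower with ordinary variances and 10 lower with array weights. At adjusted p under 0.01 they were 0 and 1, and under 0.10 they were 4 and 12. The share that passed moved with that of all genes, 21.0% against 15.1% with array weights, 25.8% against 17.4% under 0.10, 1.61% against 1.70% under 0.01, 8.06% against 9.09% with trend and robust fitting and 4.84% against 4.92% with ordinary variances. Without 1 clone they ran from 0 to 5 higher and 1 to 10 lower, and without control 2, CENPU 7 and CENPU 13 they were 0 and 2. The pathway list counts, 8 higher and 7 lower, ran from 4 to 16 and from 3 to 10 without 1 clone, and were 3 and 3 without the 3 clones, 3 and 1 under 0.01 and 13 and 10 under 0.10. Ordinary variances gave 4 higher and array weights 14. With a replicate block by clone number, which leaves the unmatched clones out of the contrast, 0 cascade and DUSP genes passed in limma, against 0.37% of all genes. In that fit 1 list gene was higher and 0 lower, and MAP2K6 differed by 1.42. At an unadjusted p under 0.05 the set had 2 above and 8 below, and the share of all genes there was not computed. The labels give the same-numbered clones (1, 4 and 5) no link beyond the number. Their deviations correlated at -0.375, 0.105 and 0.0249, and whether they share a batch was not tested. DUSP4 changed sign, with -0.073 to 0.055 without 1 clone, as did DUSP6 (-0.15 to 0.059, and 0.042 with the span trend removed) and DUSP10 (-0.17 to 0.14). These were not called in any of those fits. The causes were not tested. Differences in rows near background are compressed, which limits dim genes such as MAPK10 and MAP3K19. The control values of MAP2K6, from 5.17 to 5.58, also lay near the level of KLK3. So did the CENPU values of MAPK15, from 5.26 to 5.88, and those of DUSP26 in all clones, from 5.12 to 5.78.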
